A study of Schmidtea mediterranea with 100 samples.

Results

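The comparison described here set a bulk library of planarian cells from the S/G2/M gate against a bulk library of cells from the PM gate, with 1 library each. Both came from the asexual CIW4 strain of the flatworm Schmidtea mediterranea, a wild type clonal line fed on beef liver. Whole animals were dissociated, and the cells were stained with the DNA dye Hoechst and the RNA dye pyronin Y and then sorted by flow cytometry, where the gates were named S/G2/M, RNA-low, G1 and PM. The labels do not spell out PM or its sort limits, nor do they give the number of animals or cells behind each library, and PM is used here as a name only. Of the 67386 transcripts in the bulk table, 13002 reached 5 CPM (read counts scaled to a common total) in at least 1 of the S/G2/M and PM libraries and form the set described, and the other 54384 stayed below.

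In the adult planarian, division is confined to stem cells called neoblasts, which replace all other cell types. They carry PIWI family proteins, which bind small RNAs and hold transposons in check. When a neoblast leaves the cycle for the epidermis it switches on the prog genes before the genes of later epidermal cells appear. A gate with DNA content above that of resting cells is therefore meant to hold replicating and dividing neoblasts. Cell cycle transcripts such as PCNA and the cyclins serve as a check of that gate. Whether other cells were sorted with them was not tested.

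The S/G2/M library held 74968402 counted reads and the PM library 47338591. Among low counts the most frequent lay near 21 reads in S/G2/M and 25 in PM, rather than at 1. The peak was shallow, with 519 transcripts at it in S/G2/M and 520 in PM, beside 363 and 416 at 1 read. If that peak stands for a single fragment, a rough assumption not checked on the reads themselves, the totals were worth an estimated 3569924 fragments in S/G2/M and 1893544 fragments in PM. Reads were found for 34757 transcripts in S/G2/M and for 37093 in PM, so the library with more fragments had reads for fewer transcripts. Mitochondrial 16S ribosomal RNA took 20.1% of reads in S/G2/M and 33.0% in PM. All levels below are CPM scaled by the trimmed mean of M values (TMM), which makes each a share of a scaled library and not an amount per cell. In bulk libraries, fewer cells of a type and less RNA per cell cannot be told apart.

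A transcript was called higher or lower in S/G2/M when the ratio, after 0.5 CPM was added to each level, was at least 2-fold and the exact 95% interval of the CPM ratio on estimated fragments excluded equality. The interval covers counting error only, and since each gate has 1 library, differences lack a replicate check and no p is given. On that rule 6028 transcripts, or 46.4% of those kept, were called, with 2808 higher in S/G2/M (21.6%) and 3220 lower (24.8%). The median log2 ratio over all 13002 was 0.09, with quartiles at -1.06 and 0.92. Another scaling moves every ratio by about the same step. Median-of-ratios factors moved the median by 0.13, TMM over the S/G2/M and PM libraries alone by 0.19, library totals by -0.17 and totals without ribosomal RNA by -0.43. The 5 scalings together left 1425 transcripts higher and 2631 lower in each of them.

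**Figure D1:**
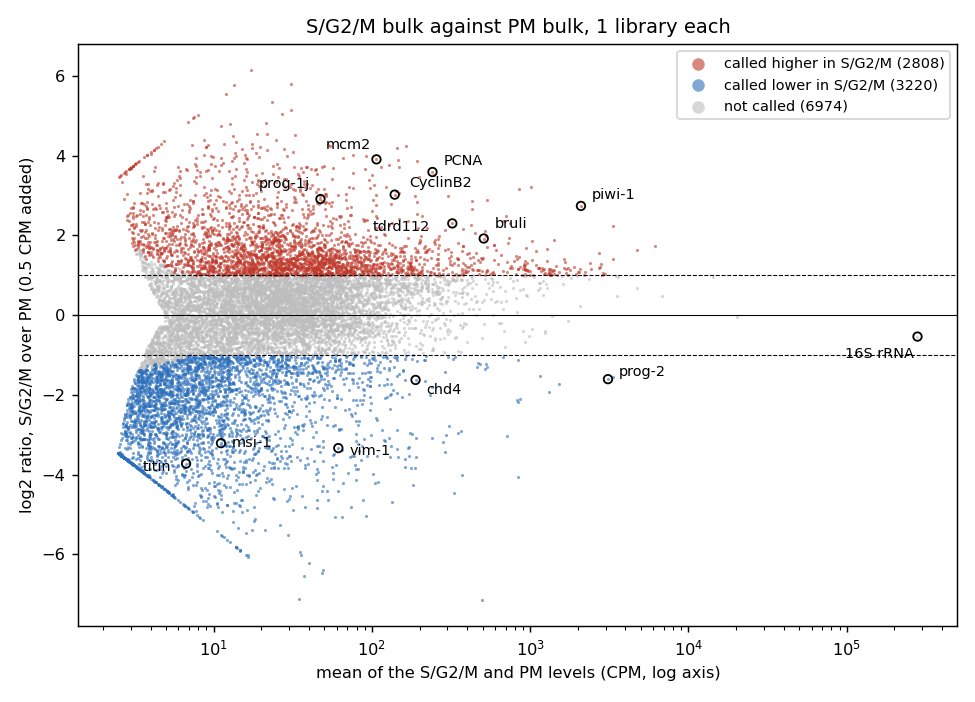
Each point is 1 of the 13002 transcripts kept, placed by its mean level in the S/G2/M and PM libraries (CPM, log axis) and its log2 ratio of S/G2/M over PM; dashed lines mark 2-fold, and ringed points are named transcripts. The 2808 red points were called higher and the 3220 blue points lower in S/G2/M, with mcm2 at 3.91 near the top and titin at -3.72 near the bottom of the named ones.

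The replication and mitosis genes stood furthest apart of all the gene groups named in the table. All 3 were called higher in S/G2/M, beside 21.6% of all transcripts kept. The gene mcm2, for a subunit of the helicase that opens replication origins, was at 201 CPM in S/G2/M and 12.9 CPM in PM, a 15.6-fold difference (log2 ratio 3.91, interval 3.39 to 4.63). PCNA, the sliding clamp of the replication fork, was at 446 CPM in S/G2/M and 36.6 CPM in PM, and CyclinB2, a mitotic cyclin, at 249 CPM in S/G2/M and 30.1 CPM in PM. Their log2 ratios were 3.59 for PCNA (interval 3.26 to 3.98) and 3.02 for CyclinB2 (interval 2.65 to 3.45). The summed level of the 3 was 896 CPM in S/G2/M, 89.3 CPM in RNA-low, 242 CPM in G1 and 79.6 CPM in PM, so PM and RNA-low lay at the low end with G1 between them and S/G2/M. All 3 calls held under the 4 other scalings.

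All 4 stem cell transcripts were called higher in S/G2/M as well, by unequal steps, beside 21.6% of all transcripts kept. Abundant transcripts were often called higher. With a mean of 1000 CPM or more, where the PIWI genes lie, 66.3% were, and the median log2 ratio was 1.06. Between 200 and 1000 CPM, where bruli lies, the share was 38.7% and the median 0.81. The ratios of piwi-2 and piwi-3 were thus near the median of transcripts at their level, and those of piwi-1 and bruli were above it. Levels of piwi-1 were 3640 CPM in S/G2/M and 544 CPM in PM, a 6.69-fold difference (log2 ratio 2.74, interval 2.65 to 2.83). The RNA-binding gene bruli, which planarian neoblasts need for their maintenance, was at 806 CPM in S/G2/M against 212 CPM in PM (log2 ratio 1.92). Of the other PIWI genes, piwi-2 was 2.30-fold higher (log2 ratio 1.20, interval 1.14 to 1.26) and piwi-3 2.02-fold higher (1.01, interval 0.94 to 1.09). With totals without ribosomal RNA, piwi-2 stood at 0.76 and piwi-3 at 0.57, and with library totals piwi-3 stood at 0.84, all short of 2-fold. The PM library was not free of stem cell transcripts, since all 4 genes were read there at 212 CPM or more. For piwi-3 the RNA-low library, at 2261 CPM, was above S/G2/M at 1980 CPM, whereas piwi-1, piwi-2 and bruli were highest in S/G2/M.

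The 3 chromatin and PIWI pathway genes were all called, in both directions, beside 46.4% of all transcripts kept. The transcript tdrd112, named for the Tudor domain that binds PIWI proteins, stood at 536 CPM in S/G2/M and 108 CPM in PM (4.95-fold, log2 ratio 2.30). Bmi-1, which encodes a Polycomb component, was also higher, at 29.6 CPM in S/G2/M and 10.7 CPM in PM (log2 ratio 1.43, interval 0.77 to 2.25). Chd4, a chromatin remodeller that planarian neoblasts need in order to differentiate, was lower, at 92.2 CPM in S/G2/M and 285 CPM in PM (log2 ratio -1.62, interval -1.84 to -1.42). The S/G2/M level of chd4 was the lowest of the 4 gates, with 611 CPM in RNA-low and 362 CPM in G1. None of these 3 calls changed with the scaling.

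**Figure D2:**
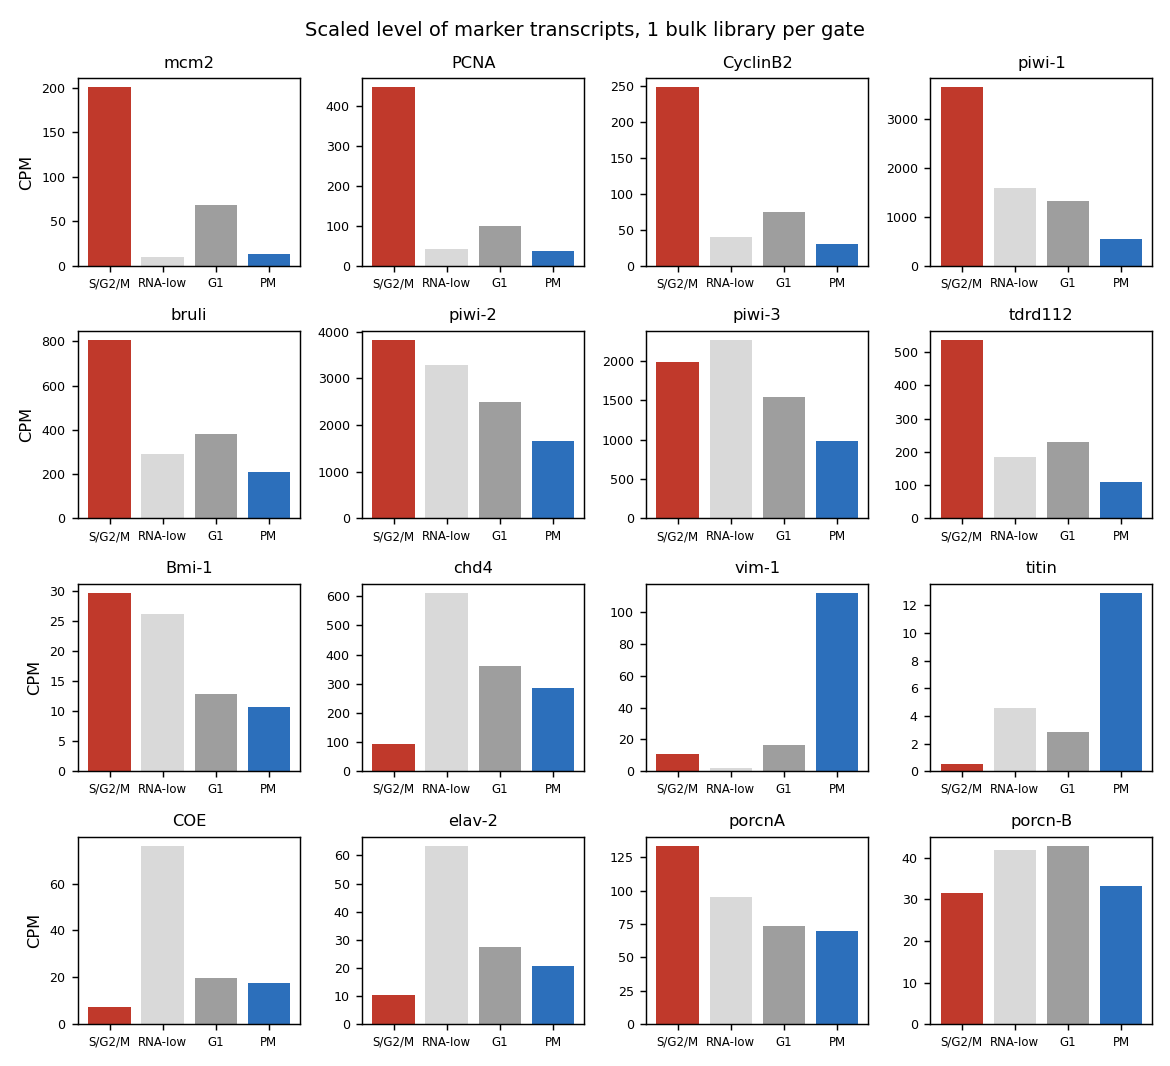
Bars give the scaled level (CPM, linear axis from 0) of 16 marker transcripts in the S/G2/M, RNA-low, G1 and PM bulk libraries, 1 library per bar and so with no error bar. The replication genes, piwi-1, bruli and tdrd112 were highest in S/G2/M, whereas vim-1 and titin were highest in PM and COE, elav-2 and chd4 in RNA-low.

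The summed early epidermal progeny transcripts were lower in S/G2/M in both families, while single prog-1 members went in both directions. All 7 prog-2 transcripts were called lower in S/G2/M, with log2 ratios from -2.17 for prog2b to -1.53 for prog2d and a median of -1.73, while 24.8% of all transcripts kept were called lower. Together they made up 5380 CPM in S/G2/M and 17175 CPM in PM, a level 3.19-fold higher in PM. PM was not the gate with the largest sum, since G1 held 25610 CPM. The RNA-low library, with 1491 CPM, stood below S/G2/M. The gene prog-2 itself was at 1534 CPM in S/G2/M and 4664 CPM in PM. All 7 calls held under each scaling.

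Of the 11 prog-1 transcripts, 5 were called higher and 4 lower in S/G2/M, beside 21.6% higher and 24.8% lower of all transcripts kept. The higher ones were prog-1j, prog-1e, prog-1f, prog1g and prog-1i. Levels of prog-1j were 83.9 CPM in S/G2/M and 10.7 CPM in PM (log2 ratio 2.91, interval 2.33 to 3.72), and those of prog-1e were 77.6 CPM in S/G2/M and 18.8 CPM in PM (2.02, interval 1.55 to 2.62). For prog1g the levels were 93.6 CPM in S/G2/M and 24.6 CPM in PM. These members were low in the RNA-low library, at 0 reads for prog-1e and 3.15 CPM or less for the others, and lay between the PM and S/G2/M levels in G1. A further 2, prog-1h (log2 ratio 0.82) and prog-1d (0.80), lay on the same side without reaching 2-fold. With totals without ribosomal RNA prog-1i stood at 0.83, and with TMM over the pair of libraries prog-1h just reached 2-fold and was called.

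The 4 lower members included the founding gene prog-1, at 325 CPM in S/G2/M and 1405 CPM in PM (log2 ratio -2.11, interval -2.22 to -2.01), and prog1a (-2.13). The others were prog1c (-2.0) and prog-1b, with prog-1b at 12.8 CPM in S/G2/M and 63.9 CPM in PM (-2.28, interval -2.89 to -1.81). In G1, prog-1, prog1a and prog1c were above their PM level, at 1961, 1760 and 108 CPM, whereas prog-1b was at 10.7 CPM, below PM. As prog-1 and prog1a carried most of the reads, the family sum followed them, with 1024 CPM in S/G2/M and 2995 CPM in PM. The members are close relatives, and the sources used here do not say how reads matching several of them were assigned, so the level of a single member is uncertain. No member of the family lay between -2.0 and 0.80.

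**Figure D3:**
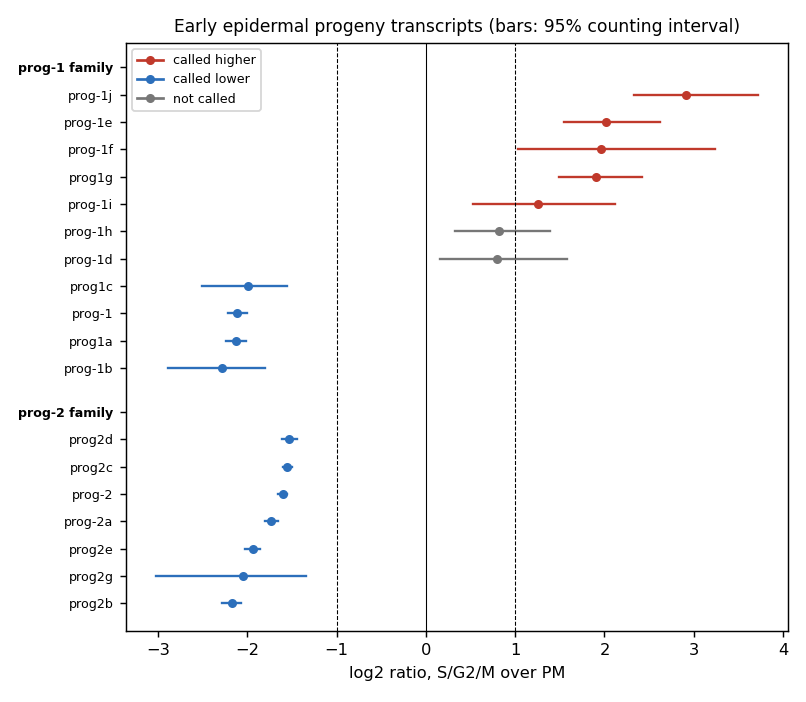
Points are the log2 ratios of S/G2/M over PM of the 11 prog-1 and 7 prog-2 transcripts, and bars the 95% counting interval on estimated fragments; dashed lines mark 2-fold. The prog-1 family falls into members at 0.80 or more and members at -2.0 or less, while the 7 prog-2 members all lie between -2.17 and -1.53.

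Markers of differentiated tissues were lower in S/G2/M where they were called. The epidermal marker vim-1 was at 10.7 CPM in S/G2/M and 112 CPM in PM, 10.5-fold higher in PM (log2 ratio -3.33, interval -3.94 to -2.84). Titin, the giant spring protein of muscle, rested on 2 estimated fragments in S/G2/M (0.515 CPM) and 24 in PM (12.9 CPM), with a log2 ratio of -3.72 and an interval from -7.45 to -2.31. COE, a transcription factor of the nervous system, was at 7.29 CPM in S/G2/M and 17.4 CPM in PM (log2 ratio -1.20). The neuronal RNA-binding gene elav-2 lay at -0.97, short of 2-fold, and passed it with library totals at -1.14. Both neural genes were highest in RNA-low, at 76.1 CPM for COE and 63.4 CPM for elav-2, so PM was not the gate with the most neural transcript.

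Neither intestinal porcupine gene was called. PorcnA was at 134 CPM in S/G2/M and 70.0 CPM in PM (log2 ratio 0.93), and it passed 2-fold with median-of-ratios factors (1.06) and with TMM over the pair of libraries (1.12). Porcn-B, at 31.4 CPM in S/G2/M and 33.1 CPM in PM, stood at -0.08 and changed sign with both of those scalings. Mucin had 0 reads in both libraries. Of the NKX2 homeobox genes, the gamma neoblast marker NXK2.2_Dth-1 (24.7 CPM in S/G2/M and 13.1 CPM in PM, log2 ratio 0.89) and NKX2.1_Dth-2 (0.30) were not called, and NKX2.1 was below 5 CPM in both libraries. NXK2.2_Dth-1 was called higher with median-of-ratios factors (1.02) and with TMM over the pair of libraries (1.07).

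Developmental transcription factors, which choose the fate of neoblast progeny, mostly stayed below the filter. Of 34 measured, 11 reached 5 CPM in either library, and 6 of these were called lower and 0 higher in S/G2/M, beside 24.8% lower and 21.6% higher of all transcripts kept. PAX5-1 gave the widest ratio, with 13.3 CPM in S/G2/M and 55.4 CPM in PM (log2 ratio -2.02, interval -2.61 to -1.53). The onecut family gene hnf6 was at 21.6 CPM in S/G2/M and 50.2 CPM in PM (-1.20), and a FoxJ1-3 transcript at 1.94 CPM in S/G2/M and 6.66 CPM in PM (-1.55, interval -3.54 to -0.36). Castor (-1.03), hb-2 (-1.04) and meis (-1.30) were lower on the main scaling but were not called with median-of-ratios factors or with TMM over the pair of libraries, which left 3 lower calls. Among those not called were ascl-1 (0.63), usf (0.41) and soxB (-0.16). The median of the 11 was -1.03, against 0.09 over all transcripts kept. The FoxJ1-3 transcript and meis passed the filter through PM only, the library where they were higher. Below a mean of 10 CPM, where both lie, 44.6% of transcripts were called lower and the median log2 ratio was -0.91.

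RNA-binding regulators of the musashi and mex3 families, which act on translation and on the fate of neoblast daughters, all had ratios below 0. So did 6196 of the 13002 transcripts kept. Of the 4 genes, 2 were called lower, beside 24.8% of all transcripts kept. The levels of msi-1 were 1.77 CPM in S/G2/M and 20.5 CPM in PM, 11.6-fold higher in PM (log2 ratio -3.21, interval -4.97 to -2.19). Mex3-3 was at 2.41 CPM in S/G2/M and 11.1 CPM in PM (-2.0, interval -3.51 to -0.90). Both msi-1 and mex3-3 passed the filter through PM only, the library where they were higher. Mex3-1, at 253 CPM in S/G2/M and 478 CPM in PM, lay at -0.92 and msi-2 at -0.85, and both passed 2-fold with library totals, at -1.10 for mex3-1 and -1.02 for msi-2. All 4 genes were higher in RNA-low than in S/G2/M, with msi-1 at 38.9 CPM and mex3-1 at 921 CPM there.

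Subunits of Mediator, the complex that links transcription factors to RNA polymerase II, were called in both directions. All 10 passed the filter, with 4 called higher in S/G2/M and 2 lower, beside 21.6% higher and 24.8% lower of all transcripts kept. Med27 was at 43.0 CPM in S/G2/M and 9.69 CPM in PM (log2 ratio 2.09, interval 1.45 to 2.97). The core subunit genes Med8 (1.64), Med7 (1.41) and Med31 (1.12) were also higher, although totals without ribosomal RNA left Med7 at 0.98 and Med31 at 0.71, and library totals left Med31 at 0.95. Med12, a subunit of the kinase module, was at 13.0 CPM in S/G2/M and 52.4 CPM in PM (-1.97, interval -2.57 to -1.47), while the kinase gene of that module, cdk8, lay at 0.58 and was not called. Med1, the subunit that nuclear receptors bind, was at 24.9 CPM in S/G2/M and 82.9 CPM in PM (-1.72). Med14 (0.48), Med19 (0.16) and Med23 (-0.49) were not called.

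Of the 4 genes listed for DNA damage and cell death, 3 passed the filter, and 2 of these were called higher in S/G2/M, beside 21.6% of all transcripts kept. ATM, the kinase that senses double-strand breaks, was at 52.1 CPM in S/G2/M and 10.6 CPM in PM (log2 ratio 2.25, interval 1.62 to 3.05), and this call held under each scaling. Ku80, a protein of DNA end joining, was at 114 CPM in S/G2/M and 46.9 CPM in PM (1.27) and stood at 0.83 with totals without ribosomal RNA. The apoptosome gene apaf1 lay on the other side at -0.67 and was not called, except with totals without ribosomal RNA, at -1.11.

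Wnt ligands, which set the head-to-tail axis of the worm, were called in both directions. Of 7 measured, 4 passed the filter and 3 of these were called, beside 46.4% of all transcripts kept. The level of wntP-3 was 22.9 CPM in S/G2/M and 5.07 CPM in PM (log2 ratio 2.07, interval 1.15 to 3.23). In contrast, wnt11-1 was at 1.03 CPM in S/G2/M and 6.91 CPM in PM (-2.28, interval -5.31 to -0.99), on 3 estimated fragments in S/G2/M. For wntP-2 the ratio was -1.13, and it was not called with median-of-ratios factors or with TMM over the pair of libraries. The fourth, wnt11-6, was at -0.09.

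On the receiving side of the Wnt pathway, 6 of 11 measured transcripts passed the filter. Of these 2 were called, beside 46.4% of all transcripts kept. The secreted Wnt antagonist gene sfrp2 was at 27.4 CPM in S/G2/M and 9.33 CPM in PM (log2 ratio 1.51, interval 0.77 to 2.34). Fzd-d, a Frizzled receptor gene, was at 4.34 CPM in S/G2/M and 19.3 CPM in PM (-2.03, interval -3.11 to -1.17). The signal transducers dvl-b (-0.80) and Bcat-1 (-0.62) were not called, though both passed 2-fold with totals without ribosomal RNA. Sfrp-a, at 1.04, was not called because its interval of -0.37 to 2.89 spanned equality.

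No Hedgehog pathway gene was called among the 5 of 8 that passed the filter, beside 46.4% of all transcripts kept. The receptor gene ptc came nearest, at 22.5 CPM in S/G2/M and 44.0 CPM in PM (log2 ratio -0.95), and it passed 2-fold with library totals (-1.13) and without ribosomal RNA (-1.40). SuFu (0.84) and the transcription factor gene gli-1 (0.80) lay on the other side, and SuFu reached 1.02 with TMM over the pair of libraries. The kinase gene fused (-0.66) was called with totals without ribosomal RNA, at -1.10. Transcripts of the ligand Hh had 0 reads in S/G2/M and 25 reads, or 1 estimated fragment, in PM.

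Among activin, spondin and LGR transcripts, 10 of 13 passed the filter and 2 were called, beside 46.4% of all transcripts kept. LGR4, of the leucine-rich repeat receptor family, was at 23.3 CPM in S/G2/M and 10.9 CPM in PM (log2 ratio 1.07), and was below 2-fold with both kinds of library totals. A spondin transcript was at 0.711 CPM in S/G2/M and 22.7 CPM in PM (-4.26, interval -8.26 to -3.22), the widest difference of any named transcript, on 2 estimated fragments in S/G2/M. The other spondin transcripts that passed the filter lay between -0.98 and -0.21 and were not called, although the one at -0.98 was called lower with library totals (-1.13) and without ribosomal RNA (-1.41).

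Cilia and intraflagellar transport genes, used by the ciliated epidermis and the protonephridia, were called lower or not at all, with 3 of 6 lower and 0 higher, beside 24.8% lower and 21.6% higher of all transcripts kept. They were RPGRIP1L (2.56 CPM in S/G2/M and 10.5 CPM in PM, log2 ratio -1.85), IFT172 (5.69 CPM in S/G2/M and 19.4 CPM in PM, -1.68) and the kinesin gene Kif27 (-1.18). Kif27 was not called with TMM over the pair of libraries, which left 2 of 6. RPGRIP1L passed the filter through PM only, the library where it was higher. The kinesin motor genes Kif3A (22.0 CPM in S/G2/M and 22.1 CPM in PM) and Kif3B (0.28), which also carry cargo outside cilia, and IFT52 (0.88, interval -0.36 to 2.21) were not called.

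**Figure D4:**
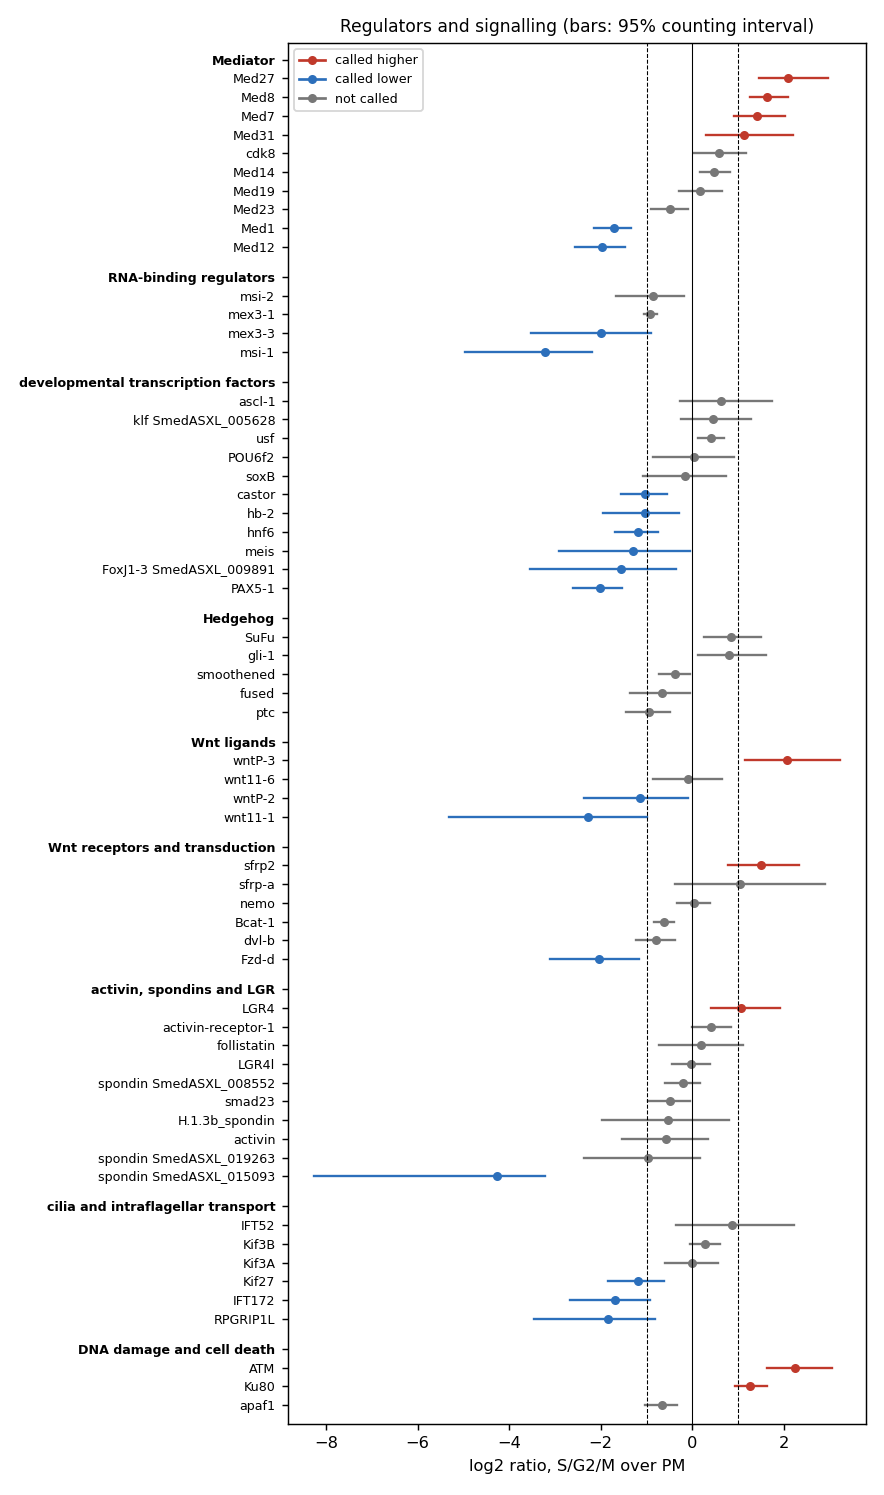
Points are log2 ratios of S/G2/M over PM for the named regulators and signalling genes that reached 5 CPM in either library, grouped by role, and bars the 95% counting interval on estimated fragments; dashed lines mark 2-fold. Calls in both directions appear within the Mediator, Wnt and activin groups, while the RNA-binding, transcription factor and cilia groups hold lower calls only.

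Of the remaining named genes, TMEM194A, for a nuclear envelope protein, was the one called higher in S/G2/M, at 33.8 CPM in S/G2/M and 8.82 CPM in PM (log2 ratio 1.88, interval 1.16 to 2.73). Lower in S/G2/M were ndk (-1.90) and ndk-4 (-2.14), genes of the FGF receptor-like nou-darake family that limits brain tissue to the head. By contrast ndk-3, of the same family by name, was at 14.1 CPM in S/G2/M and 11.6 CPM in PM (0.27) and was not called. The Ras GTPase-activating gene NF1 was at 31.4 CPM in S/G2/M and 79.8 CPM in PM (-1.33, interval -1.72 to -0.96). Reticulocalbin-1, a calcium-binding protein of the endoplasmic reticulum (207 CPM in S/G2/M and 446 CPM in PM, -1.10), and CC169 (-1.32) were lower too. CC169 and ndk-4 lay under the 20 CPM set for naming genes of this group and are given, after their values were seen, to complete the count of 5. Reticulocalbin-1 itself was not called with median-of-ratios factors (-0.97) or with TMM over the pair of libraries (-0.91). IQGAP (0.68), the dynein regulator lis1 (0.45) and the RNA methyltransferase gene METTL3 (0.32) were among the 8 not called. Of these the gap junction gene innexin-1 (-0.66) was called lower with totals without ribosomal RNA, at -1.10. Ribosomal RNA was not called either, with mitochondrial 16S at -0.54 and the 28S transcripts at -0.05 and -0.76, although the last of these reached -1.20 with totals without ribosomal RNA.

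Counted over all names, 112 of 163 named transcripts passed the filter, 24 were called higher and 37 lower in S/G2/M. That is 33.0% lower, beside 24.8% of all transcripts kept, and 21.4% higher, beside 21.6%. Names in the table were given to genes of interest, so the named set is no sample of the transcriptome. A total of 17 of the higher and 31 of the lower named calls held under all 5 scalings.

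The direction of the calls moved with the level of the transcript. Among 4227 transcripts with a mean below 10 CPM, 14.0% were called higher and 44.6% lower in S/G2/M. Between 20 and 50 CPM the shares were 24.8% higher and 12.6% lower, and among the 98 transcripts at 1000 CPM or more they were 66.3% higher and 5.10% lower. The median log2 ratio ran accordingly, from -0.91 in the lowest bin through 0.33 between 20 and 50 CPM to 1.06 in the highest. The PM library held fewer estimated fragments than S/G2/M, and the part of depth and duplication in this slope was not tested.

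**Figure D5:**
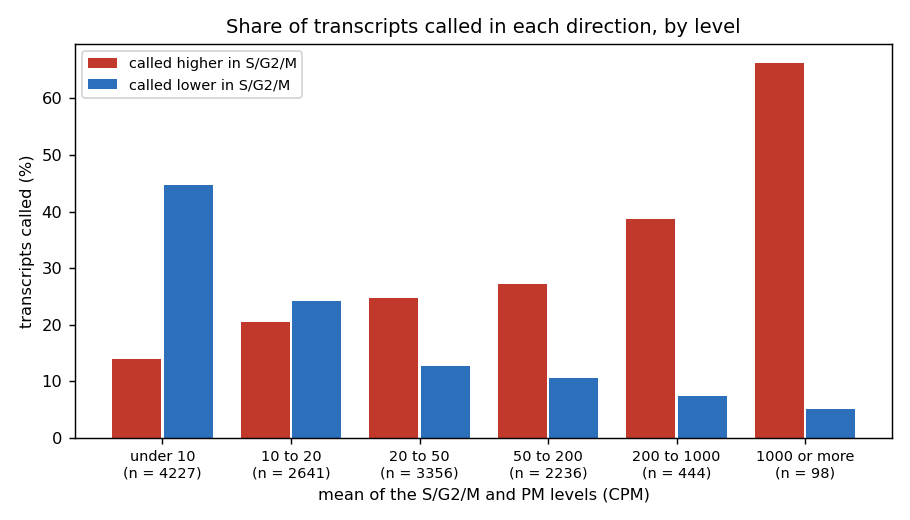
Bars give the percentage of transcripts called higher (left of each pair) and lower (right) in S/G2/M in 6 bins of the mean level in the S/G2/M and PM libraries, with the number of transcripts under each bin. The share called higher climbs to 66.3% and the share called lower drops to 5.10% at 1000 CPM or more.

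Transcripts lower in S/G2/M were mostly at low levels there. Of the 3220 lower calls, 2257 (70.1%) were under 5 CPM in S/G2/M, 485 rested on at most 1 estimated fragment and 220 had 0 reads. Of the 2808 higher calls, 732 (26.1%) were under 5 CPM in PM, 127 had at most 1 estimated fragment there and 37 had 0 reads. Calls under 5 CPM in 1 library passed the filter only through the library where they were higher, so these shares were partly built in. The filter kept 2756 transcripts through PM only and 1121 through S/G2/M only. At 5 CPM a transcript is worth 15.7 fragments in S/G2/M and 9.43 in PM. Where both libraries were at 5 CPM or more, in 9125 transcripts, 2076 were called higher and 963 lower. Wide ratios leaned towards PM, with 53 transcripts at least 16-fold higher and 236 at least 16-fold lower in S/G2/M.

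By reads the balance was the opposite of that by transcripts, with the higher set taking the larger share in both libraries. Each set was chosen on these same reads, so the direction of its difference between the libraries was fixed in advance. Transcripts called higher in S/G2/M took 47.8% of the reads outside ribosomal RNA in the S/G2/M library and 24.5% in the PM library. Those called lower took 3.54% of such reads in the S/G2/M library and 19.5% in the PM library. The 10 most abundant transcripts other than ribosomal RNA held 8.25% of such reads in S/G2/M and 6.39% in PM, and the 100 most abundant 29.3% in S/G2/M and 22.2% in PM.

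Larger ratios than any named one belonged to transcripts known by identifier only, since the table gives no gene name for 12890 of the 13002. With at least 50 CPM in the higher library, SmedASXL_017518 and SmedASXL_014799 lay highest. SmedASXL_017518 was at 61.0 CPM in S/G2/M and 0.615 CPM in PM (log2 ratio 5.79, interval 4.35 to 12.16, on 1 estimated fragment in PM). SmedASXL_014799 was at 60.4 CPM in S/G2/M and 1.23 CPM in PM (5.14, interval 3.96 to 8.89). Both had intermediate levels in G1, at 15.3 CPM for SmedASXL_017518 and 14.0 CPM for SmedASXL_014799.

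At the other end, SmedASXL_004442 stood at 6.48 CPM in S/G2/M and 980 CPM in PM, 151-fold higher in PM (log2 ratio -7.13, interval -7.98 to -6.64). It was at 54.8 CPM in RNA-low and 84.0 CPM in G1, so PM was far above each other gate. SmedASXL_018734 had 0 reads in S/G2/M and 69.5 CPM in PM. Its PM level was 72.9-fold above a floor of 3 estimated fragments in the S/G2/M library, which is not a lower bound. The counting interval, which allows a smaller difference, ended at -5.87 on the log2 scale.

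The RNA-low and G1 libraries, which entered the comparison only through the TMM factors, placed the called transcripts differently. Transcripts called higher in S/G2/M had a median of 39.7 CPM in S/G2/M, 19.0 CPM in RNA-low, 20.7 CPM in G1 and 12.3 CPM in PM. Of these 2808, 95.2% had their highest level of the 4 gates in S/G2/M, and 82.7% their lowest in PM. The call itself bars PM from being highest and S/G2/M from being lowest. It also favours the ends, so these shares were partly built in. Over all transcripts kept, S/G2/M was highest in 36.9% and PM lowest in 38.6%. Among transcripts not called, which were chosen the opposite way, S/G2/M was highest in 30.5%.

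Transcripts called lower in S/G2/M had medians of 2.32 CPM in S/G2/M, 5.12 CPM in RNA-low, 6.12 CPM in G1 and 13.2 CPM in PM. They were less uniform, since 69.9% were highest in PM, 20.7% in RNA-low and 9.38% in G1. Over all transcripts kept those shares were 24.4% in PM, 28.0% in RNA-low and 10.8% in G1. Here the call bars S/G2/M from being highest, so part of the PM share was built in. RNA-low and G1 also differed from each other more often in this set. In 20.8% of it RNA-low was at least 2-fold below G1 and in 9.47% at least 2-fold above, beside 11.8% and 5.01% of all transcripts kept. For transcripts higher in S/G2/M those shares were 13.2% below and 2.1% above. The lower set sits at lower levels, where ratios scatter more, and the part of that scatter was not tested.

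The limit of 5 CPM cut through a continuum. The 97 transcripts from 5.00 to 5.10 CPM in their higher library had a median log2 ratio of -0.88, and the 75 between 4.90 and 4.99 CPM, which were left out, had a median of -0.68.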

How the data were processed

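One bulk library per gate was made from Trizol-extracted RNA with TruSeq kits, per the labels' protocols. The table deposited by the authors holds raw whole-number counts of reads for each transcript. The submitters' processing notes name bcl2fastq 1.8.3 and Bowtie2; the counting tool, strand setting and transcript reference were not given in the sources used here. All 4 bulk columns were mapped; the 96 single cells were not used. The column headed G0 was taken as RNA-low, because the RNA-low single-cell columns also begin with G0.

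Scaling factors came from edgeR 4.0.16 under R 4.3.3, as TMM over the 4 bulk libraries. With 1 library per gate no model was fitted. Reads per fragment were estimated, roughly, as the low read count at which the smoothed number of transcripts was highest (21 in S/G2/M and 25 in PM). Intervals are conditional binomial (Clopper-Pearson) on reads divided by that number, computed with scipy 1.17.1, are of the CPM ratio without the added 0.5 CPM, and cover counting error only. The calling step was tested on simulated data with counting error only and the same reads per fragment. That test could therefore check neither the fragment estimate nor the spread between replicates. No sequences or gene annotation were used here.

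Gene lists were formed from the names in the table, and members and lists were chosen with earlier results of these data known. Within a list up to 6 called members by absolute ratio and up to 3 others are named; of the remaining names, up to 10 in each direction at 20 CPM or more; and of identifiers, 2 in each direction at 50 CPM or more. Further members are named, after their values were seen, where a count is 5 or fewer, marks the end of a range or another scaling gave a kept transcript a call. Also named after its value was seen is ndk-3, a member of the ndk family that was not called. Alternatives covered scaling, filter, pseudocount, interval and fold.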

Additional observations from a re-analysis of the deposited data

How the results depend on the processing

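The counts of 2808 transcripts higher and 3220 lower in S/G2/M depended on the filter, the fold and the scaling. Totals without ribosomal RNA gave 1474 higher and 5364 lower, out of 14917 kept. Filters of 1, 10 and 50 CPM gave 5054, 2022 and 453 lower, and the 50 CPM filter 1213 higher. A 4-fold threshold left 721 higher and 1814 lower. The other settings stayed within 1.5 times, although the share of higher calls, 46.6% on the main scaling, was 53.8% with median-of-ratios factors (3383 higher and 2905 lower), 57.3% with TMM over the pair of libraries (3535 higher and 2631 lower) and 37.1% with library totals (2124 higher and 3608 lower). Intervals on reads gave 2926 higher and 3357 lower. Of 61 named calls, 54 to 58 were kept under each other scaling, 61 with 0.1 CPM added and 49 with 5 CPM added, and 0 changed sign. No paired analysis was possible because each gate has 1 library, and no replicate could be left out. PM, with the fewest fragments, limits what can be seen at low levels.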
